A study of Danio rerio with 3 samples.

Results

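The subject is a set of 10 genes that mark mural cells, the smooth muscle cells and pericytes wrapped around vessels: acta2, tagln, myh11a, mylka, cnn1b, elnb, rgs5a, rgs5b, notch3 and pdgfrb. The members were chosen by name as known mural genes, and they were matched to 10 of the 26320 rows of the deposited expression table. For pdgfrb the row was PDGFRB, matched by spelling without regard to case. Whether that row is the same gene was not tested. At least 1 UMI (a count of 1 captured RNA molecule) was found for 9 of the 10 members, and 7 had at least 10 UMIs in cluster 1, the mural-like cluster of the deposited clustering. Cluster 1 held 149 of the 754 cells.

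The cells came from adult zebrafish hearts, in a study on mTOR activity primed by amino acids during regeneration of the heart, and were profiled by droplet single-cell RNA sequencing. There were 3 libraries, 1 per group: uninjured hearts taken before any drug (day 0), hearts 3 days after injury and hearts 7 days after injury. Injury was chemical ablation of ventricular cardiomyocytes with 5 mM metronidazole in 0.1% DMSO for 48 hours, in fish of about 5 to 12 months, a drug that kills cells carrying a bacterial nitroreductase. All 3 groups are labelled as strain AB, the transgenic line behind these libraries is not named in the labels, and with no drug listed for day 0 the drug and the injury cannot be told apart. Each library pooled 6 hearts (3 male, 3 female) digested in 2 sets. There is therefore no replicate of any value, no test between days was possible, and all intervals below cover counting error only.

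Mural cells contract through a smooth muscle version of the actin and myosin machinery. Phosphorylation of myosin light chain by myosin light chain kinase starts the contraction, and calponin and transgelin bind the actin filaments. Elastic fibres of the wall, built around elastin, give arteries and the zebrafish outflow tract their recoil. PDGF from endothelium, received by the PDGF receptor beta, and Notch signals received by Notch3 are known to recruit and maintain mural cells, and RGS5 shortens signalling by G-protein coupled receptors. In zebrafish many of these genes exist as pairs, marked a and b.

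Library totals were 857410 UMIs over 272 cells (day 0), 493660 over 114 cells (day 3) and 1355246 over 368 cells (day 7), and the median depth per cell ran from 2677 to 3260.5 UMIs. Of these cells, cluster 1 held 88 at day 0, 0 at day 3 and 61 at day 7. A count of 0 among the 114 day 3 cells allows a share of up to 2.63%, by a floor of 3 counts. One cell barcode was shared between the day 3 and day 7 libraries, by a cluster 6 cell with 4 acta2 UMIs and a cluster 1 cell with 26. Without these 2 cells no call on the members changed between day 7 and day 0 in cluster 1, or between clusters 6 and 3 at day 3. Clusters 0, 2, 3 and 6, which carried the highest summed endothelial marker levels, are named here by number. Cluster 4, 53 of whose 54 cells came from day 7, is called fibroblast-like because 4 of its 10 leading genes were fibroblast markers, and cluster 5 had 3 cardiomyocyte markers among its leading 10.

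The label of cluster 1 was checked against its markers. Its leading genes by fold over the other clusters included 2 mural markers, rgs5a and myh11a, which are both members, and no marker of another class. Among 19 further mural markers in the table that are not members, 14 were detected in cluster 1. Their summed level was 4717 CPM (UMIs scaled to 1000000 UMIs of the group) at day 7 and 4075 CPM at day 0. In cluster 4 at day 7 the sum was 3394 CPM. A single gene, myl9a, made up 3123 CPM of the cluster 1 sum at day 7 and 2197 CPM at day 0. Of its 2384 UMIs, 1323 lay in cluster 1. The leiomodin gene lmod1b, an actin filament nucleator of smooth muscle, had 526 of its 656 UMIs there, and rgs4, a relative of rgs5, had 21 of 24. Other markers of that list lay mostly outside cluster 1: myl9b had 76 of 508 UMIs there, foxc1a 31 of 344, foxc1b 19 of 126, kcne4 11 of 268, desma 2 of 44 and smtnb 0 of 11. The pericyte channel gene kcnj8 was at 0, its partner abcc9 had 2 UMIs and the proteoglycan gene cspg4 had 1, so pericyte markers in the narrow sense were at or near 0, as was PDGFRB. Endothelial markers summed to 264 CPM in cluster 1 at day 7 and 419 CPM at day 0, against 4129 to 6447 CPM over all days in clusters 0, 2, 3 and 6.

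Most transcripts of the set lay in cluster 1, a cluster made from the same table of genes, so the shares are descriptions. Cluster 1 held 98.8% of all elnb UMIs (79 of 80), 92.6% for rgs5a (1447 of 1563), 87.4% for myh11a (249 of 285), 80.4% for acta2 (3851 of 4788) and 80.1% for mylka (117 of 146). For tagln the share was 56.4% (2071 of 3675). The exception was rgs5b, with 5.61% of its UMIs (6 of 107) in cluster 1. Of the members with a UMI, cnn1b and notch3 had the fewest over all cells, with 7 of 9 and 10 of 14 UMIs in cluster 1. PDGFRB had no UMI in any of the 754 cells. The panel of levels by day and cluster shows cluster 1 as a bright column at day 0 and day 7, cluster 4 at day 7 as bright for tagln, acta2 and rgs5b, and cluster 6 at day 3 as a paler column.

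**Figure D1:**
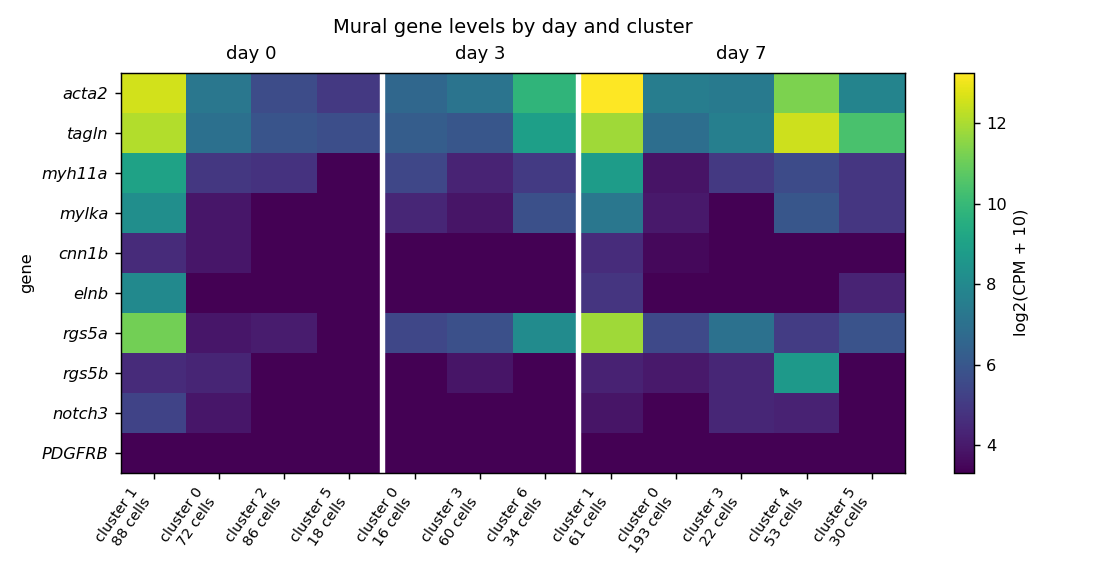
Level of each member (rows) in each cluster with at least 10 cells (columns), grouped by day, as log2(CPM + 10), where the darkest colour is 0 CPM. Cluster 1 is brightest for acta2 at both of its days (9688 CPM at day 7, 5973 CPM at day 0), cluster 4 at day 7 is brightest for tagln (5737 CPM) and rgs5b (387 CPM), and cluster 6 at day 3 shows acta2 at 887 CPM.

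Within the day 7 library, acta2, the smooth muscle actin gene, had 9688 CPM in cluster 1 against 595 CPM in all other cells. The gap was wider within the day 0 library, with 5973 CPM in cluster 1 and 80.9 CPM in the other cells. The other cells of the 2 days differ in kind, since cluster 4 had no day 0 cell. At day 7 cluster 4 held 515 of the 680 acta2 UMIs and 81 of the 86 rgs5b UMIs found outside cluster 1. For rgs5a the levels were 3641 CPM in cluster 1 and 40.2 CPM in other cells at day 7, and 2244 CPM and 5.39 CPM at day 0. For myh11a, the smooth muscle myosin heavy chain gene, they were 439 CPM in cluster 1 and 15.7 CPM elsewhere at day 7, and 519 CPM and 16.2 CPM at day 0. Of the 6 members with at least 10 UMIs over both groups at day 7, 5 were at least 2-fold higher in cluster 1 and 1, rgs5b, was lower (9.43 against 75.2 CPM), where 10.8% of 4800 measured genes were higher by that rule and 23.4% lower. At day 0 all 7 measured members were higher, where 13.7% of 3747 genes were. Of these, elnb, rgs5a, mylka, myh11a and notch3 had only 0, 3, 2, 9 and 1 UMIs in the other day 0 cells. They passed the count filter wholly or mainly through cluster 1, the group where they are high. The counts of members called describe the clustering and this filter, and are not a finding about either.

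The thin signal outside cluster 1 sets the background against which single cells can be read. After thinning every cell to 2000 UMIs, acta2 was detected in 96.7% of cluster 1 cells (59 of 61) at day 7 and in 93.2% (82 of 88) at day 0. It was detected in 9.24% of all other cells of day 0 (interval 5.47 to 14.4), where the median depth was 2570 UMIs. In cluster 0 the thinned share with acta2 was 30.1% at day 7 (median depth 2976) and 15.3% at day 0 (median depth 2323). Cluster 0 carries endothelial markers, and shares at or below its own are not read as expression.

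The question put to cluster 1 across days was how its mural genes stood 7 days after cardiomyocyte loss beside uninjured hearts. The levels of acta2 and rgs5a were higher, both by the same factor. Several were close to level, and elnb, the elastin gene, was the one with the widest gap. By the rule used throughout (at least 2-fold on log2 of CPM + 10, at least 10 UMIs over both groups), 2 of the 7 measured members differed, elnb and notch3, both lower at day 7, and 0 were higher. Over all 2443 measured genes 28.4% differed by the same rule, with 325 higher (13.3%) and 369 lower. The members were therefore called at about the same share as all genes. Both called members passed the count filter mainly through day 0, the day where they are high. There elnb had 75 UMIs and notch3 9, against 4 and 1 at day 7. The count of members called is therefore not a finding about the set. The members' median log2 ratio was -0.28, beside -0.02 for all genes.

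Among the contractile genes, acta2 had 2054 UMIs in 61 cells at day 7, or 9688 CPM (interval 9274 to 10117), and 1797 UMIs in 88 cells at day 0, or 5973 CPM (5700 to 6256). The ratio was 1.62 (interval 1.52 to 1.73). Per cell, the median was 76.7 acta2 UMIs per 10000 at day 7 and 46.3 at day 0, with highest values of 1048 and 567, so the cells of the 2 days overlapped widely. One day 7 cell held 336 of the 2054 UMIs, and without the richest cell of each day the log2 ratio was 0.56 in place of 0.70.

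The actin-binding gene tagln (transgelin) went the other way in level. It had 760 UMIs, 3585 CPM, at day 7 and 1311 UMIs, 4357 CPM, at day 0, a ratio of 0.82 (interval 0.75 to 0.90). Its per-cell medians of 33.4 per 10000 at day 7 and 39.7 at day 0 each lay inside the other day's range between quartiles (20.5 to 47.3 at day 7 and 21.7 to 55.8 at day 0). Set against acta2 of the same cells, tagln therefore stood at 37.0 UMIs per 100 acta2 UMIs at day 7 (interval 34.0 to 40.2) and at 73.0 at day 0 (67.9 to 78.4). The day 7 value includes the cell with 336 of the 2054 acta2 UMIs, and it was not computed without that cell.

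The myosin gene myh11a had 93 UMIs, 439 CPM, at day 7 and 156 UMIs, 519 CPM, at day 0. Its ratio of 0.85 had an interval of 0.65 to 1.1, so no difference was detectable at this depth. The thinned share of cells with myh11a was 54.1% at day 7 (interval 40.8 to 66.9) and 62.5% at day 0 (51.5 to 72.6). Myosin light chain kinase, mylka, was lower, with 30 UMIs in 13 cells at day 7 and 87 UMIs in 42 cells at day 0. That made 141.5 CPM against 289 CPM, 2.04-fold lower at day 7 (interval 1.34 to 3.21). Its log2 ratio of -0.98 was just short of the 2-fold rule, and it passed without the richest cell (-1.09). The calponin gene cnn1b had 3 UMIs at day 7 and 4 at day 0, too few for a comparison.

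The elastin gene elnb had 4 UMIs in 4 of 61 cells at day 7, and 75 UMIs in 40 of 88 cells at day 0. As levels these were 18.9 CPM (interval 5.14 to 48.3) and 249 CPM (196 to 312), 13.2-fold lower at day 7 with an interval of 4.95 to 49.8. After thinning, elnb was detected in 6.56% of cells at day 7 (interval 1.82 to 15.9) and in 34.1% at day 0 (24.3 to 45.0). The richest single cell held 1 UMI at day 7 and 9 at day 0, so no single cell carried the difference. On the log2 scale elnb was at -3.17, and at -3.27 without its richest cells, among the 5 lowest of the 2443 genes. In cells outside cluster 1 elnb had 1 UMI in all, in a cluster 5 cell of day 7. Whether fewer cells of an elastin-making kind were captured at day 7, or the same kind held less elnb RNA, cannot be told apart here.

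**Figure D2:**
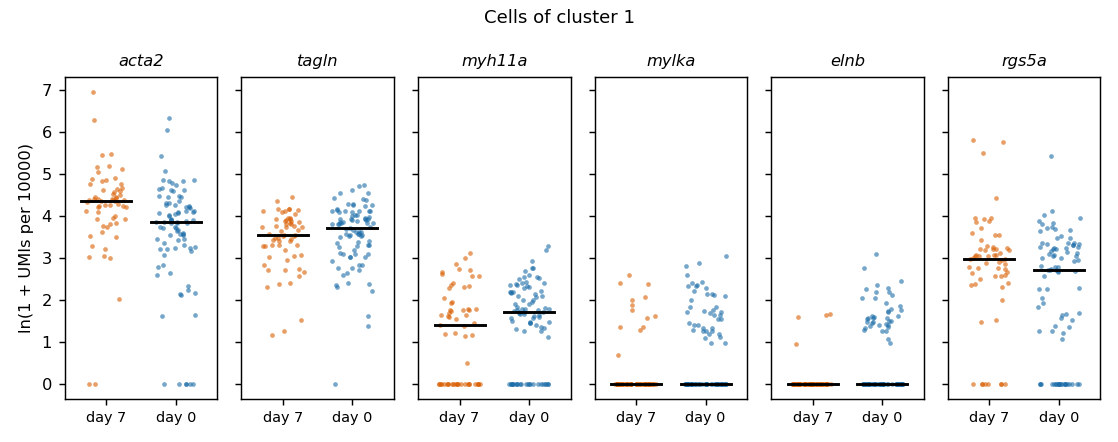
Natural log of 1 plus UMIs per 10000 (vertical axis) for each cell of cluster 1, with 61 cells at day 7 on the left and 88 cells at day 0 on the right of each panel, and the median as a black bar. The acta2 and rgs5a medians are higher at day 7, the 2 clouds overlap for every gene, and elnb is above 0 in 4 cells at day 7 and in 40 at day 0.

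Of the signalling genes, rgs5a was higher alongside acta2, with 772 UMIs, 3641 CPM, at day 7 and 675 UMIs, 2244 CPM, at day 0. The ratio was again 1.62 (interval 1.46 to 1.80), and rgs5a stood at 37.6 UMIs per 100 acta2 UMIs on both days. The thinned share of cells with rgs5a was 85.2% (interval 73.8 to 93.0) at day 7 and 68.2% (57.4 to 77.7) at day 0, with overlapping intervals. One cell held 250 of the 772 UMIs at day 7 and one held 169 of the 675 at day 0, and without them the log2 ratio was 0.56 in place of 0.70. Its paralog rgs5b was nearly silent in cluster 1, with 2 UMIs at day 7 and 4 at day 0.

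The receptor gene notch3 had 1 UMI at day 7 and 9 UMIs in 7 cells at day 0, a ratio of 0.16 with an interval of 0.00 to 1.14. It met the 2-fold rule, but its interval includes no difference. The row PDGFRB, taken by its name as the PDGF receptor gene, had no UMI in the 61 day 7 cells or in the 88 day 0 cells. By the floor of 3 counts, these allow shares of up to 4.92% and 3.41% of cells with a UMI, and the row was not detected in these cells.

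**Figure D3:**
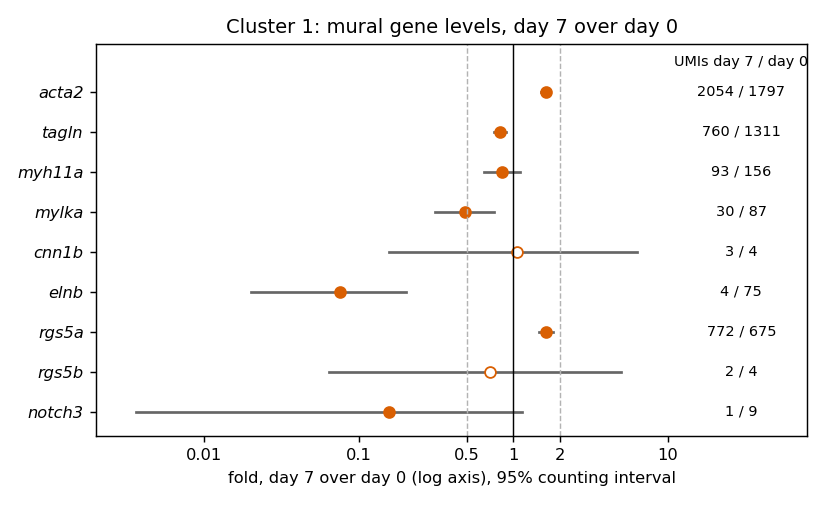
Ratio of CPM in cluster 1, day 7 over day 0, on a log axis, with the 95% counting interval as a bar and the UMIs of both days at the right, where open circles mark genes with fewer than 10 UMIs over both days. The ratios of acta2 and rgs5a are both 1.62, those of tagln and myh11a are near 1, and elnb is 13.2-fold lower at day 7.

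Other cells' markers were checked beside these differences. Between day 7 and day 0, the summed cardiomyocyte markers in cluster 1 were 6901 and 6335 CPM, the fibroblast markers 1241 and 2074 CPM, the epicardial list, led by keratins, 6212 and 3011 CPM, and the macrophage markers 99.1 and 193 CPM. The cardiomyocyte list includes the tropomyosin gene tpm4a, at 3174 CPM at day 7 and 1496 CPM at day 0. That gap is wider than the gap between the sums, so the rest of the list was lower at day 7. The median depth was 2770 UMIs at day 7 and 2950.5 at day 0. The part of these shifts in the member levels was not tested.

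Within cluster 1 the members varied together from cell to cell only in part. Among members detected in at least 25% of its cells, the 6 pairs at day 7 had Pearson correlations of 0.13 to 0.50 (median 0.36, 61 cells) and the 15 pairs at day 0 had 0.08 to 0.62 (median 0.34, 88 cells). The medians cover different pairs, since mylka and elnb reached that share only at day 0. Each of the 6 pairs of day 7 had a higher value at day 0, where they ran from 0.29 to 0.62. The pair acta2 and tagln stood at 0.50 at day 7 and 0.52 at day 0, and acta2 and rgs5a at 0.42 and 0.62. At day 0 elnb had a correlation of 0.43 with acta2 and 0.08 with mylka. All these cells share a library, and their depths differ, so the values are descriptions. Most cluster 1 cells carried several members at once. Of the 6 members acta2, tagln, myh11a, rgs5a, mylka and elnb, at least 3 were detected in 88.5% of thinned cells at day 7 (54 of 61) and in 85.2% at day 0 (75 of 88), and the 6 together made up a median of 1.38% of a cell's UMIs at day 7 and 1.22% at day 0.

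Paralogs were followed because near-identical copies can share reads. In cluster 1 the muscle actin genes acta1b (18 UMIs at day 7, 22 at day 0) and actc1a (39 and 24 UMIs) stood beside the 2054 and 1797 UMIs of acta2, and a row deposited as ACTA2 (2 of 2) had 1 UMI at day 7 and 0 at day 0. The row mylkb had 9 and 20 UMIs beside the 30 and 87 of mylka, and a further row, mylka.1, had 4 and 3. The related tagln2 had 439 CPM at day 7 and 555 CPM at day 0. The other copies myh11b, elna and cnn1a were at 0 in cluster 1 on both days. How the authors' counting split such reads is not stated in the labels or files.

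The rest of the contractile machinery was followed through a list of 53 smooth muscle genes. Of these, 46 were in the table and 26 measured in cluster 1, with 5 at least 2-fold higher at day 7, 4 lower and a median of -0.03 on the log2 scale. For this list and those below, the comparison is all 2443 measured genes. Of these, 28.4% differed by the same rule, with 325 higher and 369 lower. No list was tested against that share, so the counts of list genes called are descriptions. The caldesmon gene cald1b, an actin-binding brake on contraction, was higher, with 269 CPM at day 7 against 66.5 CPM at day 0 (4.04-fold, interval 2.39 to 7.11). The leiomodin gene lmod1a had 146 CPM at day 7 and 66.5 CPM at day 0. The LIM protein gene csrp1b had 12 and 4 UMIs. Higher values of smtna (smoothelin) and tpm4a (tropomyosin) leaned on single cells, with 124 of 155 smtna UMIs and 234 of 673 tpm4a UMIs of day 7 in 1 cell each. Without the richest cells their log2 ratios were 1.51 for smtna and 0.54 for tpm4a, in place of 3.48 and 1.08. On the lower side, the actin cross-linker filamin, flna, had 104 CPM at day 7 against 405.5 CPM at day 0, 3.91-fold lower (interval 2.47 to 6.46), and tpm3, tpm4b and cnn2 were 2.16-fold to 2.48-fold lower.

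Genes that control or signal to smooth muscle gave few measured values. Of 31 transcription factor genes 26 were in the table and 7 measured, 2 of them lower and 0 higher. The median log2 ratio was -0.72, which was -0.35 once each gene's richest cell was left out. The forkhead factor foxc1a was lower, with 5 UMIs at day 7 and 26 at day 0. For gata5 the difference rested on 1 day 0 cell that held 146 of 189 UMIs, and without the richest cells the log2 ratio was 0.28 in place of -1.62. Of the other measured ones, mef2aa was at 0.97 and gata6 at -0.16. Of 40 pericyte and G-protein signalling genes 8 were measured, 2 higher and 2 lower, with a median of 0.07.

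Around the receptors notch3 and PDGFRB, 7 of 43 Notch pathway genes and 2 of 19 PDGF pathway genes were measured. In the Notch list 1 was higher (dlc, 8 UMIs at day 7 and 4 at day 0) and 4 were lower, with a median log2 ratio of -1.16. The lower 4 were the Hes-type target genes her4.1, her4.2, her4.3 and her6. By name, her4.1, her4.2 and her4.3 are related copies, which can share reads, so they may not stand for separate results. How reads were split among them was not tested. The list median is the value of her6, which had 8 UMIs at day 7 and 29 at day 0. The count of Notch genes called, beside 28.4% of all genes, is therefore not a finding about the pathway. For her4.1 the levels were 401 CPM in cluster 1 at day 7, where 3 of 61 cells had a UMI, and 1855 CPM at day 0, where 26 of 88 had one. One day 7 cell held 61 of the 85 UMIs and one day 0 cell 85 of the 558, and without them the log2 ratio was -3.68 in place of -2.18. The notch2 receptor gene had 7 and 6 UMIs. In the PDGF list the ligand gene pdgfaa had 0 UMIs at day 7 and 11 at day 0, at least 2.58-fold lower by a floor of 3 counts over the day 7 cells, and pdgfrl had 10 and 6 UMIs.

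Beside elnb, 6 of 31 elastic fibre genes were measured, 1 higher and 1 lower, at a median of -0.22. Without each gene's richest cell that median was -0.51. The TGF-beta binding protein gene ltbp3 was lower, with 70.8 CPM at day 7 and 183 CPM at day 0. The cross-linking enzyme gene lox had 51.9 and 53.2 CPM, and the microfibril gene mfap5 340 and 462 CPM. The higher one was mgp, whose 42 UMIs of day 7 all lay in 1 cell. Of these genes ltbp3 was the furthest below level, 2.58-fold lower (interval 1.44 to 4.92), beside 13.2-fold for elnb. Of 37 TGF-beta and BMP pathway genes 12 were measured, 4 higher and 1 lower, with a median of 0.36, which was -0.13 once each gene's richest cell was left out. Single cells held most day 7 UMIs of tgfb3 (185 of 223), id3 (201 of 309) and id2a (167 of 273). The lower one was ctgfa, with 8 UMIs at day 7 and 32 at day 0, and smad3a had 4 and 13 UMIs. For scale, the genes furthest from level without their richest cells were, beside elnb, her4.1, mhc1uba, bcl2l10 and her4.2.1 on the lower side, and zgc:158463, carhsp1, psmc2, coq10b and rbp4 on the higher side.

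Outside cluster 1, the day 7 library held a second population rich in some of the members, the fibroblast-like cluster 4. This comparison was added after its tagln level was seen. By the 2-fold rule 1 of 6 measured members was higher in cluster 4 than in cluster 1 of the same library and 4 were lower, where 26.1% of 2287 genes were higher and 18.4% lower. Of these members, rgs5b, rgs5a and myh11a had only 2, 5 and 8 UMIs in the cluster where they were lower. They passed the count filter mainly through the other cluster. The clusters were also made from the same table of genes, so the counts of members called are not a finding about the set. The gene tagln had 1200 UMIs, 5737 CPM, in cluster 4 and 760 UMIs, 3585 CPM, in cluster 1, a ratio of 1.6 (interval 1.46 to 1.75). The member past the rule was rgs5b, with 81 UMIs in 16 of 53 cluster 4 cells (387 CPM) and 2 UMIs in 61 cluster 1 cells (9.43 CPM), 41.0-fold higher with an interval of 11.0 to 345.

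The lower members were headed by rgs5a, with 23.9 CPM in cluster 4 and 3641 CPM in cluster 1, a 152-fold difference (interval 65.0 to 470). So the 2 copies of rgs5 lay in different clusters of the day 7 library. The myosin gene myh11a had 38.2 CPM in cluster 4 and 439 CPM in cluster 1, acta2 2462 and 9688 CPM, and mylka 52.6 and 141.5 CPM. Neither cnn1b nor elnb had a UMI in cluster 4, and cluster 1 at day 7 had 3 and 4. Per 100 acta2 UMIs, tagln stood at 233 in cluster 4 (interval 210 to 259) and at 37.0 in cluster 1, and rgs5a at 0.97 and 37.6.

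**Figure D4:**
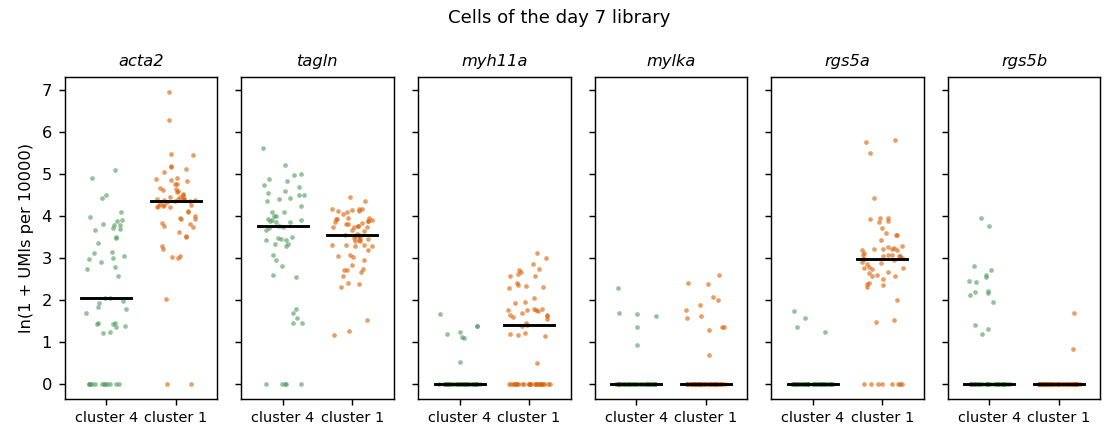
Natural log of 1 plus UMIs per 10000 (vertical axis) for each cell of the day 7 library in cluster 4 (left, 53 cells) and cluster 1 (right, 61 cells), with the median as a black bar. Cells of cluster 4 spread from 0 up to the cluster 1 range for acta2, match or pass it for tagln, and lie almost all at 0 for rgs5a, while rgs5b is above 0 in 16 of them.

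Cells of cluster 4 were uneven. The thinned share with acta2 was 71.7% (interval 57.7 to 83.2), with a median of 6.73 per 10000 and a highest cell at 161, and 88.7% had tagln. Across its 53 cells acta2 and tagln had a correlation of 0.59, while rgs5b had 0.04 with acta2 and 0.18 with tagln. Fibroblast markers summed to 31724 CPM in cluster 4 and to 1241 CPM in cluster 1 at day 7, with the non-member mural markers at 3394 and 4717 CPM.

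At day 3 no cell fell in cluster 1, and the members were followed in the 2 larger clusters of that library. Cluster 6 (34 of 114 cells) stood above cluster 3 (60 cells) in all 3 measured members, by the rule that 17.7% of 2212 genes met in that direction and 22.5% in the other. The gene acta2 had 162 UMIs, 887 CPM, in cluster 6 and 27 UMIs, 131 CPM, in cluster 3, 6.78-fold higher (interval 4.49 to 10.6). For tagln the levels were 482 CPM in cluster 6 and 53.3 CPM in cluster 3, 9.04-fold (4.82 to 18.8), and for rgs5a 268 and 43.6 CPM, 6.15-fold (2.99 to 14.2). The 3 measured members had most of their UMIs in cluster 6, the group where they are high (tagln 88 against 11, rgs5a 49 against 9). Below the count filter were myh11a, with 4 UMIs in cluster 6 and 2 in cluster 3, and mylka, with 8 and 1. The clusters were made from the same table, so these ratios are descriptions, and the count of members called is not a finding about the set.

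These levels were spread over many cluster 6 cells. Thinned to 2000 UMIs, acta2 was detected in 85.3% of them (interval 68.9 to 95) and in 21.7% of cluster 3 cells (12.1 to 34.2), and unthinned in 94.1% and 35.0%, at median depths of 4408 and 2880.5 UMIs. For tagln the thinned shares were 50% in cluster 6 and 13.3% in cluster 3, and for rgs5a 35.3% and 10.0%. The richest cluster 6 cell held 17 of the 162 acta2 UMIs. The median was 9.69 acta2 UMIs per 10000 and the highest cell 22.3, below the cluster 1 medians of 76.7 at day 7 and 46.3 at day 0.

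**Figure D5:**
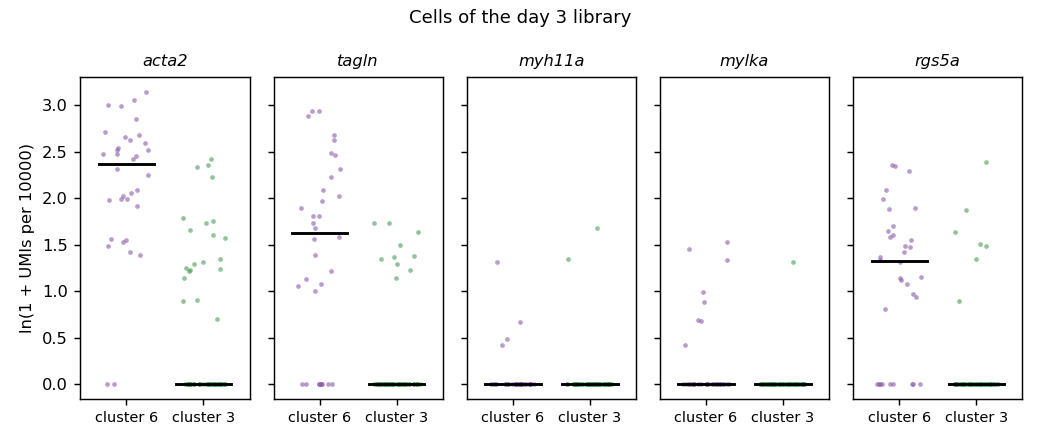
Natural log of 1 plus UMIs per 10000 (vertical axis) for each cell of the day 3 library in cluster 6 (left, 34 cells) and cluster 3 (right, 60 cells), with the median as a black bar. Nearly all cluster 6 cells lie above 0 for acta2 (32 of 34) and most for tagln and rgs5a (25 of 34 each), while most cluster 3 cells lie at 0 for every gene shown.

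Set beside cluster 1, the cluster 6 levels were a small fraction. Across libraries, acta2 in cluster 6 at day 3 was 9.15% of its cluster 1 level at day 7 and 14.8% of that at day 0. For tagln these were 13.4% and 11.1%, and for rgs5a 7.36% and 12.0%. With 8 UMIs in 8 cells, mylka was at 30.9% (interval 12.3 to 69.1) and 15% (6.34 to 31.2). The myosin gene myh11a, with 4 UMIs, was lowest of these, at 4.99% (1.33 to 13.2) and 4.22% (1.14 to 11.0). That is close to its floors of 3.74% and 3.17%. Per 100 acta2 UMIs, cluster 6 had 54.3 tagln UMIs (interval 41.4 to 70.8), against 37.0 in cluster 1 at day 7 (34.0 to 40.2) and 73.0 at day 0 (67.9 to 78.4). The day 7 value of cluster 1 includes the cell with 336 of the 2054 acta2 UMIs. Cluster 6 had 30.2 rgs5a UMIs per 100 acta2 UMIs (21.5 to 41.9), against 37.6 in cluster 1 on both days. Cluster 3 of the day 3 library had 40.7 tagln UMIs (18.2 to 84.9) and 33.3 rgs5a UMIs (13.8 to 73.0), intervals that include the cluster 6 values. In the 34 cells elnb, notch3, cnn1b and rgs5b had 0 UMIs. The exact upper limit for notch3 is 83.4% of the cluster 1 level at day 0, which rests on 9 UMIs. For cnn1b and rgs5b it is 249%, so no difference from cluster 1 was detectable. Against day 7 the limits of notch3, cnn1b and rgs5b all exceed the cluster 1 level. For elnb, the exact upper limit of 0 counts is 8.30% of the day 0 level of cluster 1 (6.59% by the floor of 3 counts). Against the day 7 level, which rests on 4 UMIs, the exact upper limit is 176% (87.0% by the floor of 3 counts). That limit exceeds the day 7 level, so no difference from day 7 was detectable.

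Markers of other classes differed between the 2 day 3 clusters as well. Cardiomyocyte markers summed to 2282 CPM in cluster 6 and 10133 CPM in cluster 3, and macrophage markers to 345 and 968 CPM. Endothelial markers summed to 5051 CPM in cluster 6 and 3718 CPM in cluster 3, and 20 of 24 were detected in each. The non-member mural markers were close in sum, at 1609 and 1462 CPM, with 10 and 11 of 19 detected. Different genes led these sums, myl9a (903 CPM) in cluster 6 and myl9b (915 CPM) in cluster 3. The pericyte genes kcnj8 and cspg4 were at 0 in both. The Notch target her4.1 was at 1904 CPM in cluster 6, found in 34 of 34 cells, and at 72.6 CPM in cluster 3. The cluster 6 level of her4.1, which is no member of the set, was 475% of its cluster 1 level at day 7 (interval 374 to 609) and 103% of that at day 0 (89.6 to 118). Cluster 6 cells were also the deeper ones, and the part of depth and of these other markers in the member levels was not tested.

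The remaining groups were low in every member but a few. In cluster 0, acta2 was at 144 CPM at day 0, 88.3 CPM at day 3 and 174 CPM at day 7, with overlapping intervals (95.4 to 207, 38.1 to 174 and 144 to 208). One of the 72 day 0 cells held 14 of the 28 UMIs, and without it the day 0 level was 72.6 CPM (39.7 to 122), an interval below that of day 7. In cluster 2 at day 0 it was at 38.9 CPM, and in cluster 3 at 162 CPM at day 7 and 131 CPM at day 3. In cluster 5 it was at 214 CPM at day 7 and 21.1 CPM at day 0, the day 0 value from 1 UMI. For tagln the same groups ran from 42.3 to 184 CPM, apart from cluster 5 at day 7 with 1322 CPM, where 1 of 30 cells held 110 of the 136 UMIs. The gene rgs5a reached at most 119 CPM in these groups, in cluster 3 at day 7, where 1 of 22 cells held 7 of 11 UMIs.

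Across the 12 groups of a cluster and day with at least 10 cells, the members followed each other to different degrees. The correlation of each member with the mean of the others was highest for acta2 (0.96) and mylka (0.95), then 0.90 for myh11a, 0.87 for tagln and 0.80 for rgs5a. It was lower for cnn1b (0.76), elnb (0.74) and notch3 (0.72), and lowest for rgs5b (0.33). Of 3799 other genes with at least 30 UMIs, the 15 most like the members' mean had correlations of 0.94 to 0.97. They were sh3bgrl2, lmod1b, si:ch211-170d8.8, si:dkey-57k2.6, TPM1, si:dkey-4i23.7, epas1a, wfdc2, ALKBH3 (2 of 2), ppp1r14aa, figf, pcolcea, si:busm1-57f23.1, fhl3b and tpm2. Outside cluster 1, 12 of the 15 were highest in cluster 4 at day 7, and the other 3, epas1a, figf and pcolcea, in cluster 6 at day 3. These groups share libraries, so the correlations are descriptions. The tropomyosin gene TPM1 had 873 CPM in cluster 1 at day 7 and 1060 CPM at day 0, and lmod1b had 863 and 1140 CPM.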

How the data were processed

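The authors deposited 1 table of natural log values, ln of 1 plus UMIs per 10000, for 26320 genes in 754 cells, and a cell table with UMI counts, gene counts, the day and cluster numbers at 2 resolutions, per the file headers. Cell Ranger and the build GRCz10 are named in the submitters' processing notes, without a version. The labels state 272, 141 and 368 recovered cells for day 0, day 3 and day 7, against 272, 114 and 368 in the deposited files. Whole UMIs were recovered by reversing the log: the largest distance of the 497895 non-zero values from a whole number was 0.000479 (tolerance 0.001), and recovered totals matched the deposited counts in 754 of 754 cells. All deposited cells were used. Doublets were not called here, and their removal before deposit is not stated.

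UMIs were summed per cluster (finer resolution) and day and scaled to 1000000 (CPM), with exact Poisson intervals for levels, exact conditional intervals for ratios and Clopper-Pearson intervals for shares, all at 95%. They cover counting error only. Counts of 0 are given with a floor of 3 counts. A gene was measured with at least 10 UMIs over both groups, and called at 2-fold or more on log2 of CPM + 10. Groups under 10 cells gave no level for comparison, apart from those flagged for a closer look. Shares come from cells thinned to 2000 UMIs. With 1 library per day no p-value was computed. The calculation was tested on simulated data. Python 3.11.15, numpy 2.4.6, pandas 2.3.3, scipy 1.17.1 and matplotlib 3.10.9 were used.

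Members and lists were chosen with earlier results of these data known. Beside all 10 members, the text names the 15 genes most like them. From each list it names the 2 highest and 2 lowest measured genes and those called with an interval excluding no change, apart from results of the signalling list that are not reported here. It also names the 5 highest and 5 lowest genes of all without their richest cell. Related gene copies, marker genes and single cells named beside these were chosen after their values were seen. The comparison of cluster 4 with cluster 1 was also added then. Alternatives changed the pseudocount, scaling, thinning, weighting of cells, filter and clustering resolution, or left out cells. Gene names are as deposited. Sequences and positions were not analysed here.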

Additional observations from a re-analysis of the deposited data

Results flagged for a closer look

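Groups of fewer than 10 cells held member transcripts above the level in cells other than cluster 1 at day 0, and these groups entered none of the comparisons above. In cluster 2 at day 3, with 3 cells, acta2 was at 1611.5 CPM, tagln at 859 CPM, rgs5a at 645 CPM and rgs5b at 215 CPM, against 80.9, 108, 5.39 and 3.59 CPM in the other cells of day 0. The gaps were narrower within the day 3 library, where all cells together, these 3 included, stood at 429, 229, 136 and 26.3 CPM. A single cell of 2097 UMIs held 14 of the 15 acta2 UMIs, 7 of the 8 tagln UMIs, all 6 rgs5a UMIs and both rgs5b UMIs. This cell had 9 UMIs of endothelial markers and 0 of myh11a. In cluster 3 at day 0, with 6 cells, tagln was at 681 CPM, and 1 cell held 12 of the 13 UMIs. In cluster 6 at day 0, with 2 cells, tagln was at 640.3 CPM, all 8 UMIs from 1 cell of 8232 UMIs. The 1 cell of cluster 4 at day 3 had 10 rgs5b UMIs, or 2241 CPM, and no UMI of acta2, tagln, myh11a or rgs5a.

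The day 7 over day 0 ratio of tagln was 31.3 in cluster 5 and 0.82 in cluster 1, opposite directions, and this difference was not tested. In cluster 5 tagln had 1322 CPM at day 7 and 42.3 CPM at day 0. A single day 7 cell of 2516 UMIs held 110 of the 136 UMIs, had 420 UMIs of cardiomyocyte markers and no acta2, and without it the level was 259 CPM.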

How the results depend on the processing

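Leaving out or rescaling moved few counts of genes called, while the call on mylka moved under most alternatives, as given below. With a pseudocount of 50 CPM, 1 member (elnb) was lower in cluster 1 at day 7 in place of 2, and 12 genes of the pathway lists passed the 2-fold rule in place of 28. Counts of members called kept within 1.5 times of the reported ones under the other settings. By that step, 1 more member beside 2 does not count as moved. No member ratio that met the 2-fold rule changed sign, and 51 single ratios, list medians or shares moved. Ratios and shares were judged by their counting interval, and list medians by a fixed step on the log2 scale. The direction held under all 11 alternatives for acta2 (log2 ratio 0.56 to 0.78), rgs5a (0.56 to 0.87), tagln (-0.39 to -0.21), myh11a (-0.35 to -0.07), mylka (-1.19 to -0.82), elnb (-3.66 to -2.12) and notch3 (-2.43 to -0.55), and turned for rgs5b and cnn1b, which had under 10 UMIs. Some of these alternatives could not turn a direction. The coarser clusters gave the same cluster 1 values, and neither the count filter nor the pseudocount can change the sign of a ratio. The gene mylka, not called in the main setting, passed the 2-fold rule under 7 of the 11. With median-of-ratios scaling the median of all genes moved to -0.12, against -0.02. Thinning left no measured PDGF pathway gene and so gave no median. No paired analysis was possible because each day had 1 library. Low counts limit what can be said of notch3, cnn1b, rgs5b and PDGFRB, which had 10 or fewer UMIs in cluster 1. Why PDGFRB had no UMI in any cell was not tested.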

Other observations

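Single genes reached very high counts in single cells of cluster 1 at day 7, in several different cells. The richest cell for each gene held 185 tgfb3 UMIs at a depth of 2018, 234 tpm4a UMIs at a depth of 2285, 201 id3 UMIs at 2433, 336 acta2 UMIs at 3205, 250 rgs5a UMIs at 7517 and 124 smtna UMIs at 8185. The richest acta2 cell was also the richest id2a cell, with 167 id2a UMIs. None of these cells was the deepest cell, which had 15553 UMIs and carried 95 acta2, 64 tagln and 32 rgs5a UMIs, or 61.1, 41.1 and 20.6 per 10000, beside cluster medians of 76.7, 33.4 and 18.8. What set these single cells apart was not tested.

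The retinol-binding protein gene rbp4, a secreted carrier of retinol, was among the 5 genes furthest above level in cluster 1 at day 7, with 11306 CPM against 1775 CPM at day 0 (6.37-fold, interval 5.80 to 7.01), and it was found in 58 of 61 cells at day 7 and in 75 of 88 at day 0. On the lower side, the antigen presentation gene mhc1uba had 3 UMIs in 2 cells at day 7 and 57 UMIs in 34 cells at day 0.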
